A study of Mus musculus with 6 samples.

Results

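The epidermal growth factor (EGF) receptor family and its ligands were followed through the 10 genes Btc, Areg, Ereg, Egf, Hbegf, Tgfa, Egfr, Erbb2, Erbb3 and Errfi1. Every probe set whose platform annotation named exactly 1 of these genes was taken, whatever its signal. This gave 17 of the 28225 probe sets other than controls, covering 9 of the 10 genes and 9 of the 12364 genes named in the table. Areg had no such probe set among the rows used here and was not analysed. The cells were mpkCCD clone 11, a single clone of immortalised mouse kidney cells from the cortical collecting duct, grown as a polarized layer on membrane supports. Cells whose layer resisted current at 5 kohm per cm2 or more received vehicle or 0.1 nM dDAVP, a synthetic agonist of the vasopressin V2 receptor, and both groups were kept for 5 days. Total RNA from 3 vehicle and 3 dDAVP samples was measured on Affymetrix Mouse Genome 430 2.0 arrays, 1 array each. The labels call the samples biological replicates without naming separate passages or days, so p-values here measure only how far these 6 samples spread, which may be technical.

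EGF family ligands are made as membrane-anchored precursors that proteases cut loose, and the freed ligand binds receptors on the same or nearby cells. Egfr binds EGF, TGF-alpha, amphiregulin, epiregulin, betacellulin and HB-EGF, Erbb3 binds neuregulins and has little kinase activity of its own, and Erbb2 has no known ligand and works as the partner of the others. Bound receptors pair, phosphorylate each other and signal through Ras and MAP kinase, while Errfi1 (Mig6) binds the kinase domain of the receptor and blocks it. In the kidney, EGF is known as a product of the thick ascending limb and distal convoluted tubule, and EGF receptor signalling is known to affect salt and water transport in the collecting duct.

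The treatment was checked on Aqp2, the vasopressin-regulated water channel, which rose 17.8-fold (95% interval 16.1 to 19.7, limma adjusted p = 1.66e-07). Arrays correlated at 0.996 to 0.998 over all probe sets, and their medians lay within 0.043 log2 units. The hybridisation controls, transcripts added to the labelled material, were at 10.61 ± 0.08 log2 units in vehicle and 10.46 ± 0.066 in dDAVP arrays (SD, n = 3), and an exact permutation test, two-sided, gave p = 0.1, its smallest possible value here. Epithelial markers were bright, with a mean over 5 of 5 markers between 12.41 and 12.53 on all 6 arrays. Of 13 principal cell markers 10 were measured, and 3 passed the test, Aqp2, Avpr2 and Fxyd4, against 0.291% of all genes. The rest changed by -0.08 (Gata3) to 0.26 (Scnn1g). The mean over the 10 was 7.32 to 7.38 in vehicle and 7.90 to 7.98 in dDAVP arrays, with Aqp2 changed by 4.15 and a median change of 0.19. For other cell types, markers were set against a limit of 3.56, the 95th percentile of the means of 10 probe sets for olfactory receptors, genes assumed silent in a kidney line. Above it were 0 of 1 measured endothelial markers (Cdh5) and 1 of 2 of fibroblasts and smooth muscle (Col1a1 at a mean of 3.63, not Col3a1). Of the proximal tubule 1 of 2 was above it (Lrp2 at 8.30, not Aqp1). Of leukocytes 2 of 3 were (Cd68 at 5.56 and the macrophage receptor gene Csf1r at 9.36, not Ptprc). None of these markers passed the test (0 of 8), against 0.291% of all genes. The mean of the 3 measured intercalated cell markers of 7 listed was 7.38 to 7.52 in vehicle and 7.62 to 7.81 in dDAVP arrays. Atp6v0a4 changed by 0.42, Atp6v1b1 by 0.32 and Rhcg by 0.11, and none passed (limma adjusted p = 0.397, 0.153 and 0.81). The part of such cells in the differences below was not tested.

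None of the 17 probe sets passed the test of dDAVP against vehicle in limma at a Benjamini-Hochberg adjusted p below 0.05 (0 of 17), against 0.216% of all probe sets. The lowest adjusted p, 0.0552, belonged to Btc. At an unadjusted p below 0.05 there were 5 member probe sets, 2 of Btc, 1 of Egf and 2 of Egfr. All 5 were higher with dDAVP, a direction and threshold met by 4.85% of all probe sets, and 0 were lower, against 3.13%. With each gene by its brightest probe set, 2 of 9 genes, Btc and Egf, were higher at that p, against 5.51% of all genes. By that measure 0 were lower, against 2.3%. In 6 of the 17 every dDAVP array lay above every vehicle array, against 8.07% of all probe sets, and in 0 every dDAVP array lay below, against 5.35%. A change above 0 was measured in 11 of 17 member probe sets, against 51.7% of all. The median log2 change of the members was 0.07, against 0.00 for all probe sets, and it was 0.06 for the 15 probe sets of the other genes when Btc was left out.

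**Figure D1:**
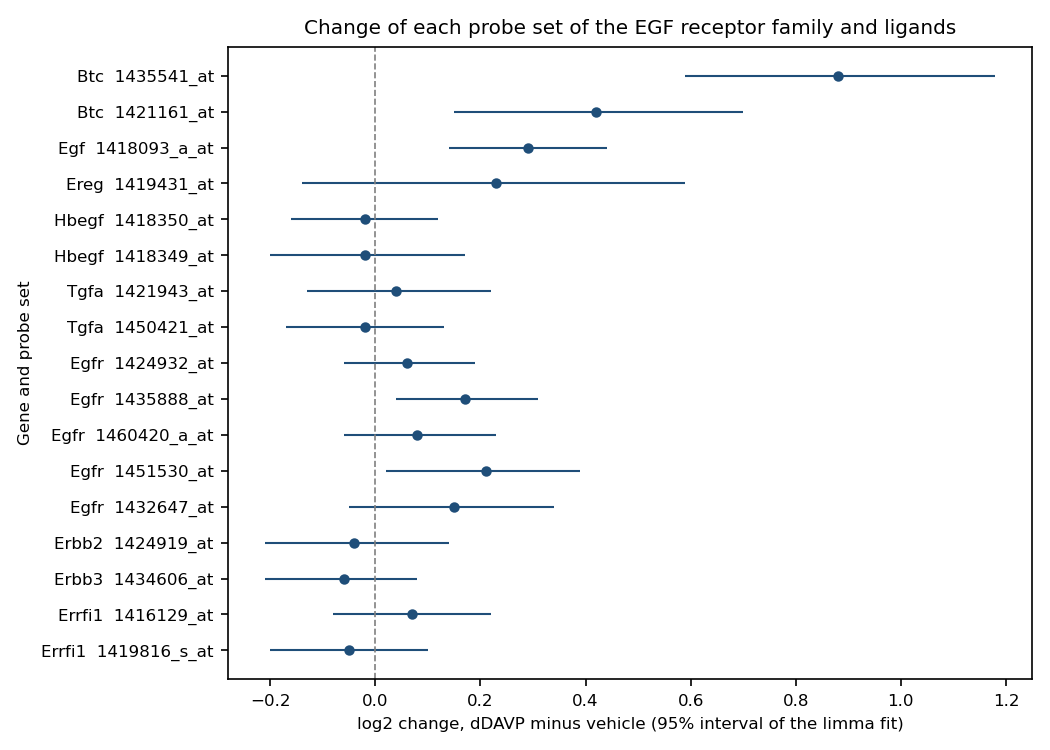
Log2 change (dDAVP minus vehicle) of each of the 17 probe sets with its 95% interval from the limma fit on 3 arrays per group, by gene and probe set. The 2 Btc probe sets lie farthest to the right at 0.88 and 0.42, and the intervals of Hbegf, Tgfa, Erbb2, Erbb3 and Errfi1 all include 0.

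Btc encodes betacellulin, a ligand of Egfr and Erbb4. Its brighter probe set, 1435541_at, measured 5.40, 4.92 and 5.36 log2 units in vehicle replicates 1, 2 and 3, and 6.07, 6.22 and 6.05 in dDAVP replicates 1, 2 and 3. All dDAVP arrays lay above all vehicle arrays, and vehicle replicate 2 was the lowest of the 6. The means were 5.23 ± 0.27 and 6.11 ± 0.092 (SD, n = 3), a difference of 0.88 ± 0.13 (SE, 95% interval 0.59 to 1.18), or 1.84-fold (1.5 to 2.26). It missed the threshold over all probe sets (limma adjusted p = 0.0552), where it ranked 72 of 28225 by p-value and 61 passed. In a bulk sample, more cells with the transcript and more transcript per cell cannot be told apart.

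The call of Btc depended on settings that left its size nearly the same. It passed after quantile normalization (log2 change 0.86, limma adjusted p = 0.046), after median centring (0.87, adjusted p = 0.0384), with the dimmest probe sets left out (0.88, adjusted p = 0.0486) and with a trended prior (0.88, adjusted p = 0.0103). With the dimmest left out, fewer probe sets were adjusted over (25177), and the unadjusted limma p was 1.45e-04, against 1.42e-04 as deposited. Btc did not pass with a robust prior (0.88, adjusted p = 0.0622) or after scaling to the poly-A controls (0.86, adjusted p = 0.117). Without vehicle replicate 2 the change was smaller, 0.73, and passed (limma adjusted p = 0.032), and without any 1 of the other 5 arrays it did not pass (0.83 to 0.97, adjusted p = 0.11 to 0.234). The adjusted p over all these settings ran from 5.94e-04, with arrays scaled to the hybridisation controls, to 0.234. That scaling gave Btc a change of 1.03 and moved the median of all probe sets from 0.00 to 0.15.

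**Figure D2:**
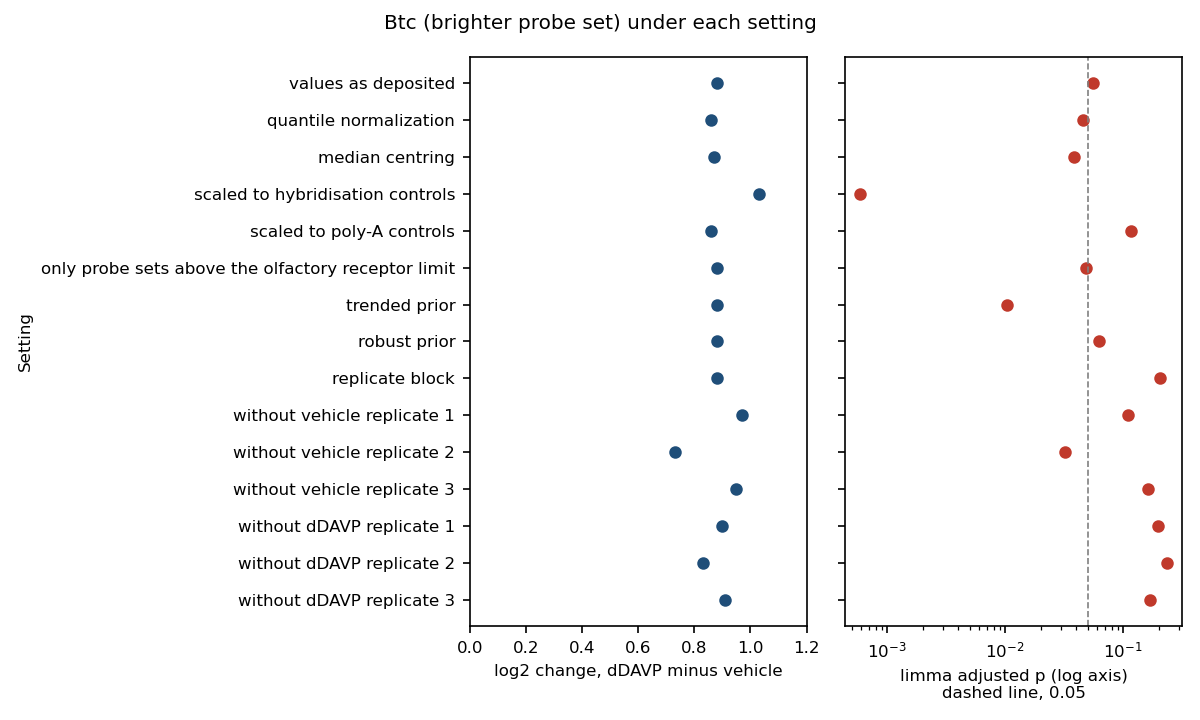
Log2 change of Btc probe set 1435541_at (left) and its limma adjusted p on a log axis (right) under each setting, with the 0.05 threshold as a dashed line. The change stays between 0.73 and 1.03, while the adjusted p lies on both sides of the line.

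The dimmer Btc probe set, 1421161_at, measured 3.61, 3.30 and 3.29 in vehicle replicates 1, 2 and 3 and 3.98, 3.62 and 3.87 in dDAVP replicates 1, 2 and 3. Here too the groups did not overlap, but the lowest dDAVP array was only just above the highest vehicle array. Its difference was 0.42 ± 0.12 (SE, 95% interval 0.15 to 0.70, limma adjusted p = 0.395). Its mean over 6 arrays, 3.61, was close to the olfactory receptor limit of 3.56. The vehicle mean, 3.40, lay below that limit, and only the dDAVP mean, 3.82, lay above it. When the 2 probe sets were averaged on each array, and every other gene likewise, the change of Btc was 0.65 and passed (limma adjusted p = 0.0213). That adjustment was over genes so averaged, not over all probe sets. The unadjusted limma p was 1.07e-04, against 1.42e-04 for the brighter probe set alone. The average takes in the dimmer probe set with its vehicle signal below the limit, so its pass is no separate support for Btc.

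V2 receptor signalling runs through cAMP and protein kinase A, and one of its nuclear targets, CREB, binds the palindrome TGACGTCA or the shorter TGACG. RefSeq promoters (GRCm38.p6) were matched for 7 of the 10 genes and searched over the 250 bases before each start, on both strands. Ereg, Hbegf and Erbb3 were not searched, and a chromosome was left out of the search for members. The 3 windows below are printed to set the gene with the largest difference, Btc, and the other ligand with an unadjusted p below 0.05, Egf, beside Errfi1, which holds the full palindrome. The Btc window is chr5:91402995-91403244, minus strand, that of Egf is chr3:129755323-129755572, minus strand, and that of Errfi1 is chr4:150854820-150855069, plus strand, at the second of its 2 listed starts. Each is written 5′ to 3′ with any match in capitals.
Btc: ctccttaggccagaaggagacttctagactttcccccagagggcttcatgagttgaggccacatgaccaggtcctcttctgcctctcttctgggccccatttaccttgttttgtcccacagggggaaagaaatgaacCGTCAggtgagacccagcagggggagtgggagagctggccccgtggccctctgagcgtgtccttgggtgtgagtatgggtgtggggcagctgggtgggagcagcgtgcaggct
Egf: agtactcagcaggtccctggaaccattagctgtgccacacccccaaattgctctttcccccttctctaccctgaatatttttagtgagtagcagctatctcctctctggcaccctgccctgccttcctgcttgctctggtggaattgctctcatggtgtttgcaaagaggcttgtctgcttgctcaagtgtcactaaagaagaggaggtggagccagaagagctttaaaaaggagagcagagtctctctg
Errfi1: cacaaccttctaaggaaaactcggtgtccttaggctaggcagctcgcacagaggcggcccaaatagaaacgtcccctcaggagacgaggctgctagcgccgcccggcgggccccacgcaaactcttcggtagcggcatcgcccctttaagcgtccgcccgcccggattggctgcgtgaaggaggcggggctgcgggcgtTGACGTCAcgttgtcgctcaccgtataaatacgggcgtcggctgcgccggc
The Btc window has 1 short site, as CGTCA, beginning 113 bases before the start, the Errfi1 window has the full palindrome beginning 51 bases before its start, and the Egf window has 0 of either. Among the 7 genes, 2 (Areg and Errfi1) had the full palindrome in a window and 4 (those and Btc and Erbb2) had a short site. The full palindrome, which contains the short site on each strand, occurs in 1.55% of 32851 promoter windows of this length and the short site in 17.8%. These shares are per window, while the counts above are per gene with a match in any of its windows, 9 windows in all. The first listed Errfi1 window had 0 of either. A match describes letters only, and binding or promoter activity was not tested. Of the 4 genes with a short site, Btc had a difference of 0.88 on its brighter probe set. Errfi1 and Erbb2 had differences near 0 in the values below, and Areg was not analysed.

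Egf, the precursor of epidermal growth factor, had 1 probe set, 1418093_a_at, at 3.23, 3.24 and 3.24 in vehicle and 3.46, 3.49 and 3.62 in dDAVP replicates 1, 2 and 3. The vehicle arrays were nearly identical and all dDAVP arrays lay above them. The difference was 0.29 ± 0.064 (SE, 95% interval 0.14 to 0.44, 1.22-fold) and did not pass (limma adjusted p = 0.24). The mean of 3.38 was below the olfactory receptor limit of 3.56, the 1 probe set of 17 of which this was true, so the signal was not told apart from that of transcripts assumed absent. Of 7 markers of the thick ascending limb and distal convoluted tubule only 2 were measured. Slc12a1 was below that limit (2.96 ± 0.078 in vehicle and 2.90 ± 0.051 in dDAVP arrays). Trpm6 was above it (5.76 ± 0.1 and 5.94 ± 0.16), with a difference of 0.17 ± 0.094 (limma adjusted p = 0.732). The mean of both was 4.31 to 4.43 in vehicle and 4.37 to 4.50 in dDAVP arrays. The part of such cells in the Egf signal was not tested.

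Ereg encodes epiregulin, a ligand that activates Egfr and Erbb4. It measured 4.62, 5.03 and 4.87 in vehicle and 4.97, 5.40 and 4.83 in dDAVP replicates 1, 2 and 3. The groups overlapped, with dDAVP replicate 3 below vehicle replicates 2 and 3. The difference of 0.23 ± 0.16 had a 95% interval of -0.14 to 0.59 (limma adjusted p = 0.808), so changes from a small decrease to a 1.51-fold increase were within it.

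Hbegf encodes the heparin-binding ligand HB-EGF, and its brighter probe set, 1418350_at, had overlapping groups at 9.06 ± 0.064 in vehicle and 9.04 ± 0.033 in dDAVP arrays (SD, n = 3). The difference was -0.02 ± 0.061 (95% interval -0.16 to 0.12, limma adjusted p = 0.96), which bounds the fold between 0.892 and 1.09. Its second probe set, 1418349_at, was at -0.02 ± 0.079, with a wider spread in dDAVP (8.05 to 8.32) than in vehicle arrays (8.20 to 8.25). Tgfa, the gene of TGF-alpha, had differences of 0.04 ± 0.077 on 1421943_at and -0.02 ± 0.065 on 1450421_at, with overlapping groups on both. The signs of the Hbegf and Tgfa values turned in some settings and no direction is drawn from them. Among the ligands, 3 of 8 probe sets were higher at an unadjusted p below 0.05 in limma, against 4.85% of all probe sets, and 0 were lower, against 3.13%. They were both of Btc and the Egf probe set, whose signal was below the olfactory receptor limit.

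**Figure D3:**
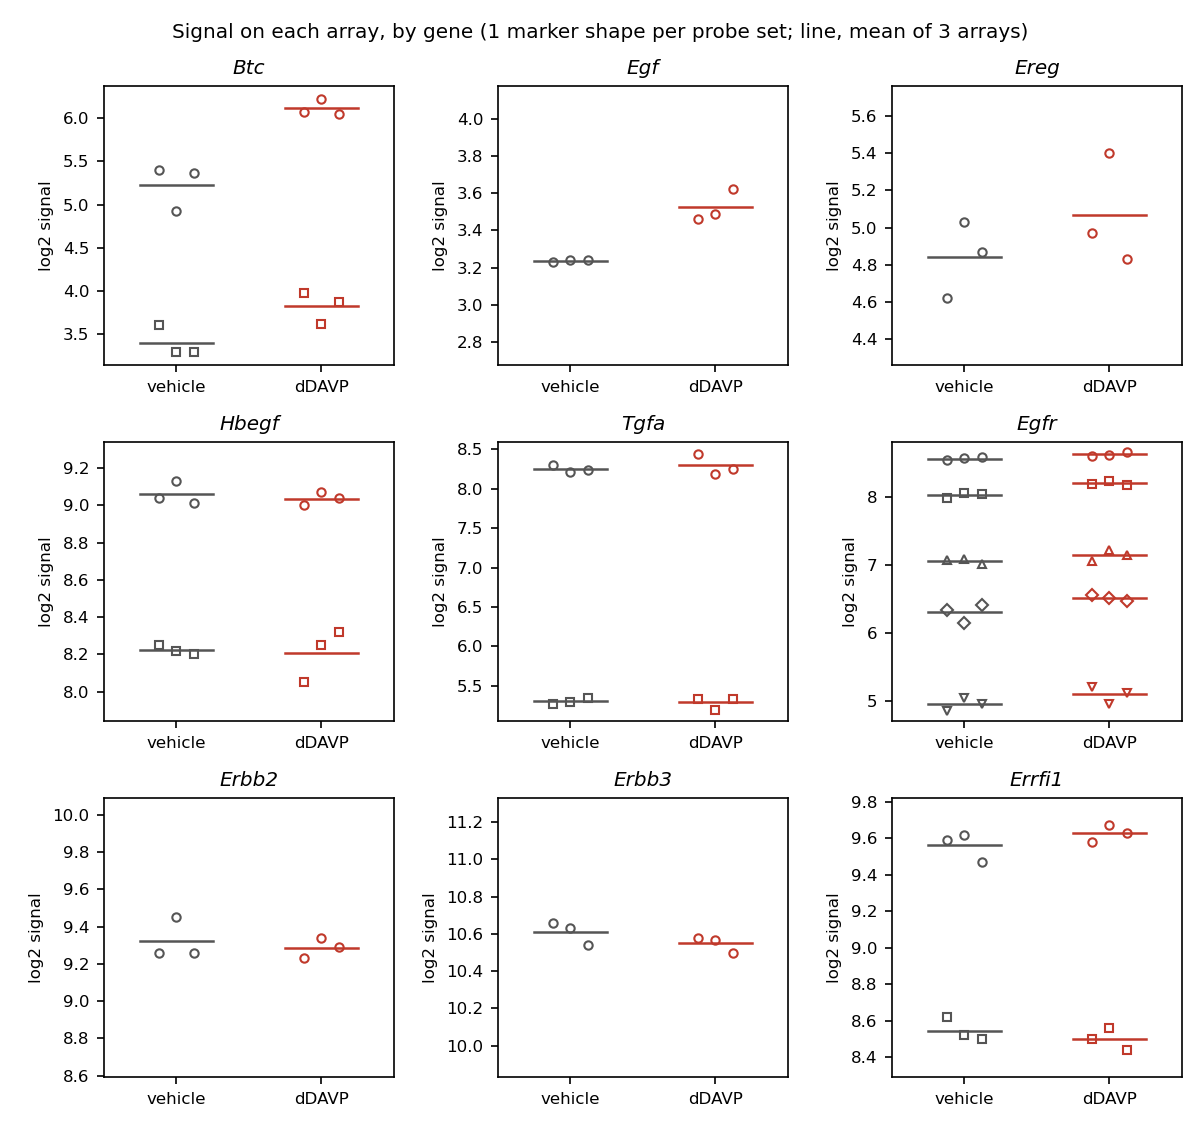
Log2 signal on each of the 6 arrays for the 9 measured genes, with 1 marker shape per probe set, vehicle in grey, dDAVP in red and the mean of 3 arrays as a line. Axes differ between panels and do not start at 0. The dDAVP arrays of Btc and Egf lie above all their vehicle arrays, and those of Hbegf, Tgfa, Erbb2, Erbb3 and Errfi1 overlap with them.

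Egfr, the receptor for most of these ligands, had 5 probe sets, and all 5 had positive differences, from 0.06 to 0.21 with a median of 0.15. The sign of each held under every normalization, prior and left-out array tried. None passed over all probe sets (0 of 5, lowest limma adjusted p = 0.479), against 0.216% of all. At an unadjusted p below 0.05, 2 were higher, against 4.85% of all probe sets, and 0 were lower, against 3.13%. Probes for 1 gene share its transcripts, so they are not independent measurements of it.

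Egfr probe set 1435888_at measured 7.98, 8.05 and 8.04 in vehicle and 8.18, 8.23 and 8.17 in dDAVP replicates 1, 2 and 3. The groups were apart, with means of 8.02 ± 0.04 and 8.20 ± 0.032 (SD, n = 3) and a difference of 0.17 ± 0.057 (SE, 95% interval 0.04 to 0.31, limma adjusted p = 0.479). Probe set 1451530_at measured 6.34, 6.15 and 6.41 in vehicle and 6.55, 6.51 and 6.46 in dDAVP arrays, a difference of 0.21 ± 0.08 (limma adjusted p = 0.563). Without vehicle replicate 2, the lowest array, the difference was 0.13. The brightest probe set, 1424932_at, was also without overlap, at 8.53 to 8.58 against 8.60 to 8.65, but the difference was 0.06 ± 0.055 (95% interval -0.06 to 0.19, limma adjusted p = 0.86). The other 2, 1460420_a_at and 1432647_at, overlapped between groups and were at 0.08 ± 0.064 and 0.15 ± 0.085. Averaged over its 5 probe sets, Egfr was higher by 0.14 with dDAVP and did not pass (limma adjusted p = 0.386 over all genes so averaged).

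Erbb2 and Erbb3, the co-receptors, had 1 probe set each. Erbb2 ranged from 9.26 to 9.45 in vehicle and from 9.23 to 9.34 in dDAVP arrays, a difference of -0.04 ± 0.074 (95% interval -0.21 to 0.14, limma adjusted p = 0.954). Erbb3 measured 10.66, 10.63 and 10.54 in vehicle and 10.58, 10.57 and 10.50 in dDAVP replicates 1, 2 and 3, a difference of -0.06 ± 0.063 (95% interval -0.21 to 0.08, limma adjusted p = 0.884). Groups overlapped for both, and both signs turned when arrays were scaled to the hybridisation controls (0.11 and 0.09), both below the 0.15 of all probe sets under that scaling.

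Errfi1, the inhibitor that Egfr signalling itself induces, had 2 probe sets of opposite sign. On 1416129_at vehicle arrays were at 9.47 to 9.62 and dDAVP arrays at 9.58 to 9.67, a difference of 0.07 ± 0.065 (95% interval -0.08 to 0.22, limma adjusted p = 0.873). On 1419816_s_at the difference was -0.05 ± 0.065 (-0.20 to 0.10, adjusted p = 0.924). The suffix _s_at marks probes that can match more than 1 transcript. Their average over both probe sets was 0.01.

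The rest of the pathway was described by 6 lists, drawn up with earlier results of these data known, each gene by its brightest probe set. No gene of the 75 measured outside the members passed in limma (0 of 75, lowest adjusted p = 0.17), against 0.291% of all 12364 genes. At an unadjusted p below 0.05, 13 were higher, against 5.51% of all genes, and 0 were lower, against 2.3%. Their median log2 change was 0.03, against 0.01 for all genes.

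Genes that EGF receptor signalling induces in many epithelia held most of these. Of 20 listed, 18 were measured, and 8 were higher at an unadjusted p below 0.05 in limma. At that p 0 were lower, against 2.3% of all genes, and 0 passed after adjustment over all probe sets, against 0.291% of all genes. The list was drawn up with earlier results of these data known, so its counts are a description and not an independent test. In 10 of the 18 all dDAVP arrays lay above all vehicle arrays, against 10.1% of all genes, and the median change was 0.21. Several genes of this list also respond to cAMP or to other growth signals, and Ereg and Hbegf belong to it as well as to the members. The 8 stood against 5.51% of all genes higher at that p, and 4.85% of all probe sets. For the other settings only the share of all probe sets was taken, which is not the like measure for genes. The count was 5 with arrays scaled to the poly-A controls (2.12% of all probe sets), 12 with arrays scaled to the hybridisation controls (22.4%) and 10 with a trended prior (5.11%). With 1 array left out it ran from 5, without vehicle replicate 3, when 1 gene was lower, to 9, without vehicle replicate 1 or 2.

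Plaur, the urokinase receptor, measured 7.89, 7.93 and 7.91 in vehicle and 8.15, 8.17 and 8.18 in dDAVP replicates 1, 2 and 3, a difference of 0.26 ± 0.054 (SE, limma adjusted p = 0.21). The spread within each group was far smaller than the gap between them. The AP-1 factor Fosl1 measured 7.76, 7.36 and 7.57 in vehicle and 7.93, 8.02 and 8.05 in dDAVP arrays, a difference of 0.43 ± 0.1 (adjusted p = 0.267), the largest of the list. The growth regulator Myc was at 9.41, 9.32 and 9.32 in vehicle and 9.71, 9.54 and 9.57 in dDAVP arrays, a difference of 0.26 ± 0.069 (adjusted p = 0.351). Plau, the urokinase that Plaur binds and a gene chosen after its values were seen, was at 0.40 ± 0.13 (adjusted p = 0.478). The immediate-early genes Fos and Egr1, likewise chosen, had values of the other sign, -0.17 ± 0.12 and -0.12 ± 0.071 (adjusted p = 0.805 and 0.754).

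**Figure D4:**
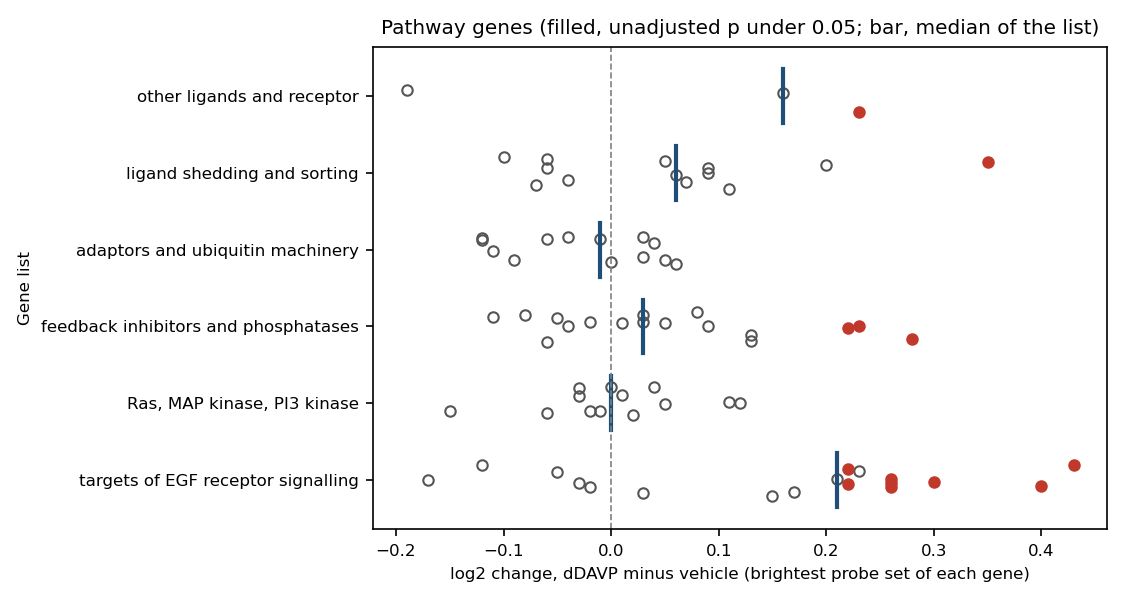
Log2 change (dDAVP minus vehicle) of each measured gene of 6 pathway lists by its brightest probe set, filled red at an unadjusted limma p below 0.05 and open otherwise, with the list's median as a bar. Filled points are to the right of 0 in every list that has any, and the median of the target list is 0.21.

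Among feedback inhibitors and phosphatases, all 17 listed genes were measured and 3 were higher at an unadjusted p below 0.05, against 5.51% of all genes, with 0 lower, against 2.3%, and a median of 0.03. Spry1, which restrains Ras activation by receptor kinases, measured 9.05, 9.03 and 8.95 in vehicle and 9.26, 9.25 and 9.34 in dDAVP replicates 1, 2 and 3, a difference of 0.28 ± 0.061 (limma adjusted p = 0.227). Dusp4, a phosphatase of MAP kinases, had 0.23 ± 0.06 (adjusted p = 0.324) without overlap between groups. Dusp5, a nuclear phosphatase of ERK, had 0.22 ± 0.085 (adjusted p = 0.56), its lowest dDAVP array at 7.40 and its highest vehicle array at 7.38.

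Of 13 genes of ligand shedding and sorting, all measured, 1, Rhbdl2, was higher at an unadjusted p below 0.05, against 5.51% of all genes, and 0 were lower, against 2.3%. A count of 1 among 13 is near that background and is no result about the list. This rhomboid protease, which can cut EGF family precursors, measured 6.66, 6.59 and 6.74 in vehicle and 7.07, 6.93 and 7.04 in dDAVP arrays, a difference of 0.35 ± 0.069 (limma adjusted p = 0.17). The groups did not overlap, and the median of its list was 0.06. Adam17, the main sheddase of these ligands, was at -0.04 ± 0.059 (adjusted p = 0.923) and Adam10, the sheddase of Egf and Btc, at -0.06 ± 0.078 (adjusted p = 0.911), both chosen for their role after their values were seen. Of 6 other ligands and receptors of the family 3 were measured, all below the olfactory receptor limit, with differences of both signs. Nrg2 was at 0.23 ± 0.083 (adjusted p = 0.539), Epgn at 0.16 ± 0.076 (adjusted p = 0.66) and Nrg4 at -0.19 ± 0.084 (adjusted p = 0.638), the last 2 printed after their values were seen. Nrg1, Nrg3 and Erbb4 were not analysed. Adaptors at the receptor (13 of 13 measured, median -0.01) and the Ras, MAP kinase and PI3 kinase cascade (13 of 20 measured, median -0.00) had 0 genes at an unadjusted p below 0.05 in limma and 0 that passed. Of all genes 5.51% were higher and 2.3% lower at that p, and 0.291% passed. A count of 0 among 13 is near that background and is no result about either list.

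The genes whose pattern lay nearest to that of Btc were found by the root mean square distance over the 6 arrays, after each gene's own mean was subtracted, among 12364 genes. They were the death-domain receptor Tnfrsf21 (distance 0.134 log2 units), Arhgef3 (0.14), the tumour suppressor candidate Mtus1 (0.141), Lurap1l (0.143) and the sphingolipid desaturase Degs2 (0.15). In each of the 5, vehicle replicate 2 was the lowest array, as it was for Btc. Since the 5 were picked for a small distance on these same arrays, that shared low array follows largely from the choice. The distance rewards a difference of like size between the groups, which were 0.64 to 1.04 for these genes, and 4 of the 5 passed the test (limma adjusted p = 0.00672 to 0.0218) while Mtus1 did not (0.143). The distance is a description of 6 arrays that fall into 2 groups.

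**Figure D5:**
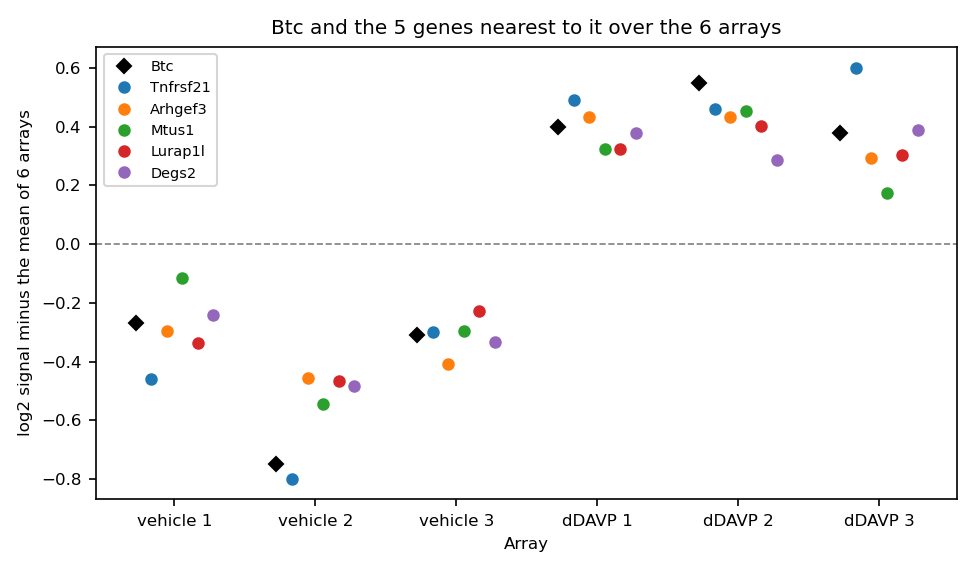
Log2 signal on each of the 6 arrays minus the mean of all 6, for Btc (black diamonds) and the 5 nearest genes (circles). For all 6 genes every vehicle array is below 0 and every dDAVP array above 0, and vehicle replicate 2 is the lowest. The 5 were picked for nearness to Btc on these arrays, so a like pattern follows largely from the choice.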

How the data were processed

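RNA of 3 vehicle and 3 dDAVP samples was read on 1 array each. The authors deposited log2 signals, 1 per probe set and array. Affymetrix Expression Console 1.1, RMA and MAS5 are listed in the submitters' processing notes, without saying which of them made these values. Values ran from 2.15 to 14.1 and were used as deposited, since array medians nearly matched. Such summaries can understate the folds of dim genes. The number of arrays limits the precision. Names came from the platform annotation (23097 with 1 symbol, 611 with several, 4517 with none), and 23026 symbols were checked by gene ID against RefSeq, with 0 changed. The 62 control probe sets stayed out of the test.

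Groups came from the sample titles. limma 3.58.1 (R 4.3.3; lmFit, eBayes, default prior) was fitted over 28225 probe sets with Benjamini-Hochberg adjustment, and the code was tested on simulated data. Intervals are 95% and come from that fit. Where a gene has 1 value, it is that of its brightest probe set by the mean of 6 arrays. Named genes were the members, Aqp2, up to 3 genes per pathway list by p-value under 0.05 where none passed, and the 5 genes nearest to Btc. Outside this rule, chosen after their values were seen, are Plau, Fos, Egr1, Adam17, Adam10, Epgn, Nrg4 and the neighbours of Btc (Parm1, Rchy1, Cdkl2, Mthfd2l). Cell type markers are named from their own lists. Members and lists were chosen with earlier results of these data known. Alternatives were 4 scalings, 2 filters on dim probe sets, 2 priors, a replicate block, each array left out, a threshold of 0.01 and averaged probe sets.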

Additional observations from a re-analysis of the deposited data

How the results depend on the processing

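Counts refer to the limma test at an adjusted p below 0.05, with 61 of all probe sets and 0 members as deposited. The count of all probe sets became 282 with arrays scaled to the hybridisation controls (97.5% higher, against 86.9% as deposited), 95 when probe sets below the median level were left out, 146 with a trended prior, 24 with the replicate block and 23 at a threshold of 0.01. It ran from 22 to 46 when 1 array was left out. The count of members was 1, Btc, after quantile normalization (0.86), median centring (0.87), the olfactory receptor filter (0.88) or a trended prior (0.88), and 2, both of Btc, after scaling to the hybridisation controls (1.03 for the brighter, 0.57 for the other). It ran from 0 to 1 with 1 array left out, where the change of Btc ran from 0.73 to 0.97. Only 10 of 17 members, not Btc, were above the median level, and Egf was not tested under the olfactory receptor filter. The target genes higher at an unadjusted p below 0.05, 8 of 18 as deposited, were 5 after scaling to the poly-A controls, 12 after scaling to the hybridisation controls, 10 with a trended prior, 7 or 8 in the other settings and 5 to 9 with 1 array left out, settings applied to this count after the data were seen. The share of all probe sets higher at that p was 4.85% as deposited, and 2.12%, 22.4% and 5.11% in the first 3 of these settings.

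Scaling to the hybridisation controls turned the sign of Hbegf (0.13 and 0.12), Errfi1 1419816_s_at (0.10), Erbb2 (0.11), Erbb3 (0.09) and Tgfa 1450421_at (0.13), all below the median of 0.15 for all probe sets. Leaving out 1 array also turned signs, over -0.05 to 0.01 and -0.07 to 0.06 for Hbegf, -0.07 to 0.03 for Erbb2, -0.04 to 0.03 for Tgfa 1450421_at and -0.03 to 0.10 for Tgfa 1421943_at. No member that reversed passed in any setting (0). Same-numbered samples deviated from their group means with correlations of 0.20, 0.05 and -0.05, and samples of unlike number with -0.21 to 0.17. The labels do not say whether same-numbered samples were handled together, and with 3 per group these values cannot decide it. With the replicate block the change of Btc was 0.88 (adjusted p = 0.204) and no member passed (0 of 17, 5 at an unadjusted p below 0.05).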

Other observations

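The genes next to Btc on chromosome 5 were looked at because Btc, Areg, Ereg and Epgn lie side by side there in the RefSeq gene order, a choice made after the values were seen. Of the 14 nearest protein-coding genes, 7 on each side, 9 were measured, and 0 passed in limma over all probe sets, with 1, Parm1, higher at an unadjusted p below 0.05, against 5.51% of all genes. A count of 1 among 9 is near that background, and the values are given as a description. Parm1, a mucin-like membrane protein and the next gene after Btc, measured 8.26, 8.32 and 8.17 in vehicle and 8.45, 8.50 and 8.56 in dDAVP replicates 1, 2 and 3, a difference of 0.25 ± 0.066 (SE, limma adjusted p = 0.336). On the other side, Ereg was at 0.23 ± 0.16, Epgn, the ligand epigen, at 0.16 ± 0.076 with a mean of 3.36 below the olfactory receptor limit, and Mthfd2l, a mitochondrial folate enzyme, at 0.08 ± 0.1. The next genes past Parm1 were at 0.01 ± 0.057 for Rchy1 and 0.07 ± 0.074 for Cdkl2.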
